A study of Mus musculus with 2 samples.

Results

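The acute phase response is the rapid change in protein output that follows infection or injury. In it, interleukin 6 and related cytokines activate the transcription factor STAT3, the C/EBP transcription factors are induced, and secreted proteins such as lipocalin 2, haptoglobin and serum amyloid A are made. The liver is the main source, but endothelial cells take part too. In the brain, the venules are the vessel segment at which leukocytes adhere and leave the blood, and their endothelium is known to turn on part of this set of genes under inflammatory stimuli. The expression of 10 such genes was described here in 2 populations of endothelial cells. They are the secreted proteins *Lcn2*, *Lrg1*, *Hp*, *Saa3* and *Orm1*, the regulators *Socs3* and *Cebpd*, the enzymes *Ch25h* and *Upp1*, and the actin-binding peptide *Tmsb10*. All of the probe sets that the platform annotation gives to 1 of these symbols and to no other were taken, which made 17 of the 45101 probe sets and 10 of the 18194 genes. The genes were picked with the ratio between these same arrays in view, and *Lcn2* is also among the genes that the study itself picked from them. Their ratios are therefore given as a description and support nothing beyond it.

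Both populations were sorted from the brain vasculature of C57BL/6 mice with normal pathology, and both were gated on CD31, the adhesion molecule that marks endothelium. They differ in the surface protein Prom1, also called CD133, which CD31+ Prom1+ cells carry and CD31+ Prom1- cells lack. The study asked which factors Prom1+ endothelium makes that Prom1- endothelium does not, with the growth of glioma in mind. Each population was measured on 1 Affymetrix mouse expression array, and how many mice its RNA came from is not given in the sources used here. No group was treated. Since neither population has a replicate, no error between samples can be given and nothing was tested. In sorted populations such as these, fewer cells of a type and less RNA per cell cannot be told apart.

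Every signal is given here as a multiple of the median signal of its own array, and where a pair of signals is given the Prom1- array comes first and the Prom1+ array second. Signals under 1.67, which is 100 on the scale of the authors' target of 500, were treated as not measured and this limit is called the floor. The genes of endothelium in general were bright. All 14 pan-endothelial genes on the array reached the floor in both populations, their signals added up to 2011 against 1856, and 1 was 2-fold higher in the Prom1+ array. *Prom1* itself gave a signal of 196 in the array labeled Prom1- against 159 in the array labeled Prom1+, so the transcript did not follow the label, and the names of the arrays are only those of their labels. Transcripts of other cell types were present in both arrays and mostly higher in the Prom1- array. The summed signal of 10 mural genes was 1025 against 316, and 9 of them were 2-fold lower in the Prom1+ array. That of 13 genes of microglia and macrophages was 250 against 112, with 8 of 12 measured genes lower, and that of 9 fibroblast and meningeal genes was 366 against 64.1, with 5 of 8 lower. Oligodendrocyte genes summed to 440 against 217, although *Cnp* was 2.84-fold higher and *Mog* was measured in the Prom1+ array alone. Choroid plexus genes summed to 441 against 215, most of it *Ttr* at 426 against 210, with 3 of 5 measured genes lower. Astrocyte genes summed to 111 against 110, most of it *Gja1* at 67.0 against 84.5. Of 5 measured astrocyte genes 1 was lower, *S100b* at 15.9 against 3.11. The defining astrocyte markers *Gfap*, *Aqp4* and *Aldh1l1* were under the floor on both arrays.

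The sequence just before the start of a gene can hold sites through which STAT3, the C/EBP factors and NF-kB are known to act on acute phase genes. Reference windows of 250 bases before each annotated start were read from the RefSeq annotation of GRCm38.p6 for 7 of the 10 genes, that is all but *Cebpd*, *Hp* and *Orm1*. Both strands were searched for the STAT motif TTCNNNGAA, for the C/EBP motif TTGCNNAA and for the NF-kB consensus. Of 32851 mouse promoter windows of the same length, 7.02% held the first, 9.56% the second and 7.25% the NF-kB consensus. The windows of *Lcn2*, *Lrg1* and *Ch25h* are shown because these 3 genes differed most between the arrays, and that of *Socs3* because it is the textbook target of STAT3. All are on the minus strand and are printed 5′ to 3′ up to the base before the start. Capitals mark a motif match. They are chr2:32387740-32387989 for *Lcn2*, chr17:56121947-56122196 for *Lrg1*, chr19:34475149-34475398 for *Ch25h* and chr11:117969367-117969616 for *Socs3*.
Lcn2: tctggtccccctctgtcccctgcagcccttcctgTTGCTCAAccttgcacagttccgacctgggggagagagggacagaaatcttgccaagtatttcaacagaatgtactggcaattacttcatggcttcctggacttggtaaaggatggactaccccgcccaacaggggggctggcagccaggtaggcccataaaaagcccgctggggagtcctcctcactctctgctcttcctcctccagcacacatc
Lrg1: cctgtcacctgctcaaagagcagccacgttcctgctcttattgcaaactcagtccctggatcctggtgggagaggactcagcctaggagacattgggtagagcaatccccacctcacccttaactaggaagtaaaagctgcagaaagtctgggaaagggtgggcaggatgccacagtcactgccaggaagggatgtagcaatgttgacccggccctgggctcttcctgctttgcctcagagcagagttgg
Ch25h: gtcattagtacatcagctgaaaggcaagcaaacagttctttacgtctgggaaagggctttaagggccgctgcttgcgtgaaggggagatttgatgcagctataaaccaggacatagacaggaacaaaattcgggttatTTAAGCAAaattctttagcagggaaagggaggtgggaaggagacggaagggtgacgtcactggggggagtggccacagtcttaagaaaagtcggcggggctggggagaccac
Socs3: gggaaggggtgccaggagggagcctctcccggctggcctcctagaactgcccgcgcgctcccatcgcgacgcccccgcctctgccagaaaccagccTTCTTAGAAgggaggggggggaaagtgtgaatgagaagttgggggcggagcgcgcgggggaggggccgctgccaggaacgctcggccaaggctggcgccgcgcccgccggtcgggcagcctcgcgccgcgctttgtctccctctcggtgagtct

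In the *Lcn2* window the match TTGCTCAA was a C/EBP motif 216 to 209 bases before the start. The *Ch25h* window held the C/EBP motif as TTAAGCAA, its reverse strand form, 112 to 105 bases before the start, and the *Saa3* window held it as TTATGCAA, 99 to 92 bases before the start. The *Socs3* window held the STAT motif as TTCTTAGAA, 154 to 146 bases before the start. None of the 3 motifs was found in the windows of *Lrg1*, *Upp1* and *Tmsb10*. No window held more than 1 match, so that none overlapped. These arrays measured transcripts only, and a match is a description of the letters in the window.

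Where 1 of a pair of signals was under the floor the fold is a bound, and where both were no fold was made. A difference of at least 2-fold was called. As a measure of background, 27 probe sets for *Bacillus* transcripts, which match no mouse gene, reached at most 0.276 on the Prom1- and 0.234 on the Prom1+ array. By this rule 26.4% of 21966 probe sets had a higher and 5.16% a lower signal in the Prom1+ array, and by genes, each represented by its brightest probe set, 28.2% of 10793 were higher and 4.77% lower. Among the 17 probe sets described here 5 were higher, 0 lower, 6 within 2-fold and 6 under the floor on both arrays. Among the 10 genes, *Lcn2*, *Lrg1*, *Ch25h* and *Cebpd* were higher, 0 were lower, *Socs3* and *Tmsb10* were within 2-fold, and *Upp1*, *Hp*, *Saa3* and *Orm1* were under the floor. *Lcn2* and *Lrg1* passed the floor only through the array in which they are high, so that they had to differ, and nothing is read from the count.

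**Figure D1:**
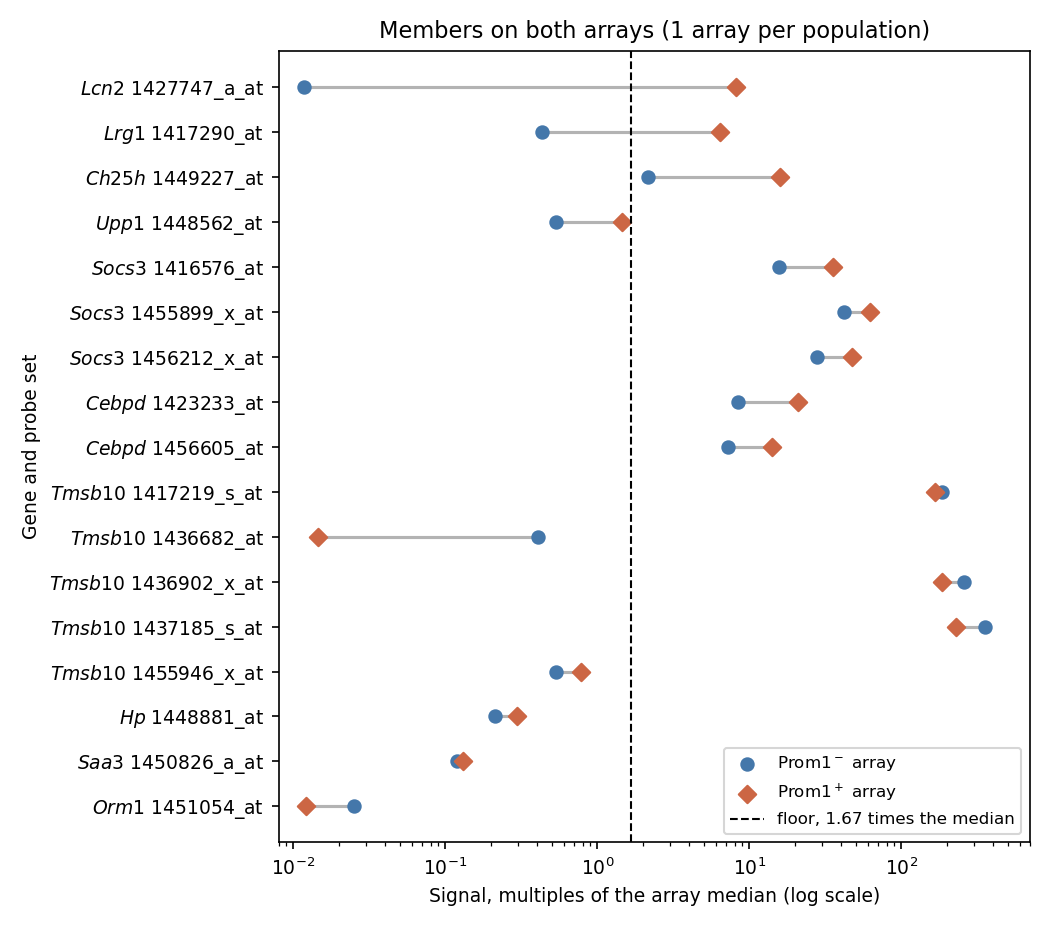
Signal of each probe set of the 10 genes on both arrays, in multiples of the array median on a log scale, with 1 point per array and the floor of 1.67 times the median as a dashed line. *Lcn2* and *Lrg1* cross the floor, *Ch25h*, *Socs3* and *Cebpd* lie above it with the Prom1+ array higher, 3 probe sets of *Tmsb10* lie at the bright end with the Prom1- array higher, and *Hp*, *Saa3*, *Orm1* and *Upp1* lie under it on both arrays.

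Of the secreted proteins, lipocalin 2 and leucine-rich alpha-2-glycoprotein were measured in the Prom1+ array alone. *Lcn2* encodes a small carrier protein that binds bacterial siderophores and so withholds iron from microbes, and it is released by neutrophils and by inflamed epithelium and endothelium. Its probe set, 1427747_a_at, gave a signal of 0.0118 in the Prom1- array against 8.21 in the Prom1+ array. The former lay within the range of the *Bacillus* controls and has no order among dim signals. *Lcn2* was at least 4.90-fold higher in the Prom1+ array, where it was brighter than 72.0% of all probe sets. The study lists it at about 694-fold, which is the ratio of these signals without a floor. Of 8217 genes under the floor in the Prom1- array, 816 reached it in the Prom1+ array, and 29, *Lcn2* among them, were at least as bright there as *Lcn2*.

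The 3 genes with the pattern most like that of *Lcn2*, by the distance between their log2 signals over the 2 arrays, all stayed dimmer in the Prom1+ array. *Gm11772* gave 0.0168 against 3.04, at a distance of 1.52. *Nexmif* gave 0.0231 against 3.29 at a distance of 1.64, and *Cep135* gave 0.0188 against 2.53 at a distance of 1.83. The Prom1- signals of all of these, like that of *Lcn2*, lay within the range of the *Bacillus* controls, so that background sets part of these distances, and likeness over 2 arrays is a weak description.

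*Lrg1* encodes a secreted glycoprotein that the liver makes in the acute phase and that modulates TGF-beta signaling in endothelium. It is a known marker of venous endothelium. Its probe set, 1417290_at, gave 0.434 in the Prom1- array, above the highest *Bacillus* control but under the floor, against 6.37 in the Prom1+ array. *Lrg1* was therefore at least 3.80-fold higher in the latter. It was brighter than 37.6% of all probe sets in the Prom1- array and than 69.1% in the Prom1+ array, and 71 genes under the floor in the Prom1- array, *Lrg1* included, were at least as bright in the Prom1+ array.

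The other secreted acute phase proteins of the set were not measured on either array. Haptoglobin, *Hp*, which binds free hemoglobin, gave 0.212 against 0.295. *Saa3*, the inducible serum amyloid A of tissues outside the liver, gave 0.119 against 0.131. *Orm1*, the acid glycoprotein orosomucoid, gave 0.0250 against 0.0122. Their signals for the most part lay within the range of the *Bacillus* controls, the exception being *Hp* in the Prom1+ array. The 23135 probe sets that neither array measured had log2 ratios from -3.04 at the 10th percentile to 2.42 at the 90th, so that the ratio of such dim signals carries little. A low level of these transcripts was not detectable on these arrays.

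Neutrophils hold much *Lcn2*, *Lrg1* and *Hp*, so their markers were read beside these values. Of 13 neutrophil genes listed 11 are on the array, among them the granule genes *Ngp*, *Camp*, *Ltf*, *Elane* and *Mpo* and the calprotectin genes *S100a8* and *S100a9*. All 11 were under the floor on both arrays, and their signals added up to 4.38 against 2.04. The part of neutrophils in the *Lcn2* and *Lrg1* signals was not tested.

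Cholesterol 25-hydroxylase, *Ch25h*, had the largest fold of those of the 10 genes that both arrays measured. It makes 25-hydroxycholesterol, an oxysterol with antiviral action that also restrains sterol synthesis and is the precursor of a chemoattractant for lymphocytes. Its probe set, 1449227_at, gave 2.15 in the Prom1- array against 16.0 in the Prom1+ array, a difference of 7.45-fold. The signal in the Prom1- array was not far above the floor. Of 9360 genes measured on both arrays, 6 had at least this fold. The other 5, named after their values were seen, were *Ptgs2* at 11.3-fold, *Zkscan6* at 8.47-fold, *Eef1akmt1* at 7.82-fold, *Gtf2f2* at 7.61-fold and *Neurl2* at 7.59-fold. *Ptgs2*, the inducible cyclooxygenase, is like *Ch25h* a gene known to be induced in endothelium by inflammatory cytokines. The study itself also picked *Ptgs2*, with a larger fold from a probe set other than the brightest used here.

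The ratio between the arrays varied with signal, and the *Ch25h* fold was set against this. Among probe sets that both arrays measured, the log2 ratio had a median of 0.87 where the mean log2 signal was 3 to 4, of -0.23 at 7 to 8 and of -0.64 at 8 to 9. Each probe set was therefore described with the median of the 200 probe sets nearest to it in mean signal. For *Ch25h* this median was 1.83-fold, and 41.0% of these neighbors were 2-fold higher. Its own 7.45-fold lay above all of them in the plot of ratio by signal. A measure of error inside these arrays is how far probe sets of the same gene disagree, and over 3930 genes their log2 ratios had an SD of 0.54. It does not hold the spread between animals. The log2 ratio of *Ch25h* was 2.90 beside the neighbors' median of 0.87. This SD is pooled over other genes, since *Ch25h* has no second probe set, so it is not the error of *Ch25h*. The gene was picked with its ratio in view, so its place among other genes is a description only.

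**Figure D2:**
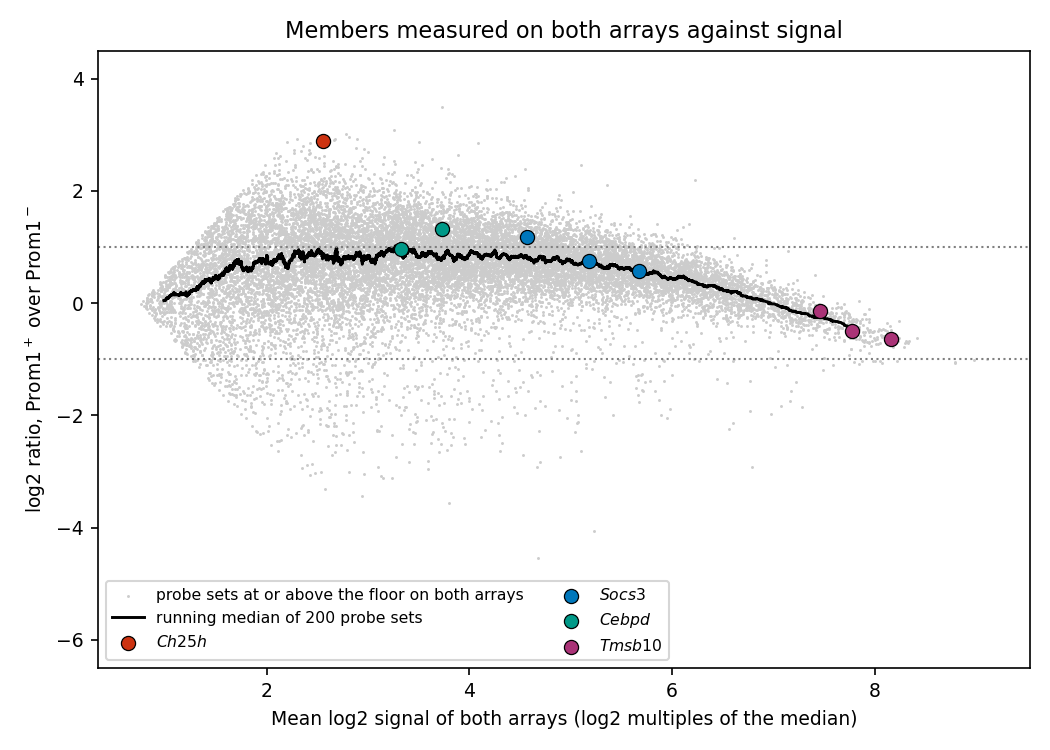
Log2 ratio of the Prom1+ over the Prom1- array against the mean log2 signal of both arrays, for probe sets at or above the floor on both (gray), with the running median of 200 probe sets (black line) and the probe sets of *Ch25h*, *Socs3*, *Cebpd* and *Tmsb10* (colored). Dotted lines mark 2-fold. *Ch25h* lies far above the line at 2.90, *Cebpd* and *Socs3* lie on it or a little above, and *Tmsb10* follows it down at the bright end.

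Of 14 genes of the oxysterol pathway on the array 12 were measured, of which 4, *Ch25h* included, were higher and 8 within 2-fold. *Hsd3b7*, which acts after *Ch25h* in the same route, gave 13.8 against 30.6 and was 2.22-fold higher, against a neighbors' median log2 ratio of 0.86 and its own of 1.15. *Cyp7b1*, the enzyme between them, was under the floor with all 3 of its probe sets. *Gpr183*, the receptor on lymphocytes for the oxysterol formed before the step of *Hsd3b7*, gave 3.07 against 0.698, the latter under the floor. Besides *Ch25h* and *Hsd3b7*, the sterol sensor partner *Scap* was 2.02-fold higher and *Nr1h3*, a nuclear receptor for oxysterols, at least 2.05-fold higher. None was lower, and the median log2 ratio of the pathway was 0.47. Over all genes measured 28.2% were higher and the median was 0.66. With the trimmed mean, quantile normalization and loess *Ch25h* was the only gene of the pathway higher.

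The regulators *Socs3* and *Cebpd* were bright on both arrays and higher in the Prom1+ array with each probe set, and the log2 ratio of each lay within 0.54, the SD just given, of the median of its neighbors. *Cebpd*, the C/EBP factor known to be induced most in the acute phase, has 2 probe sets. Probe set 1423233_at gave 8.38 against 21.0, a 2.50-fold difference, where its neighbors had a median of 1.75-fold. Probe set 1456605_at gave 7.21 against 14.0, a 1.94-fold difference, where its neighbors had 1.84-fold. The former passed the 2-fold threshold and the latter lay just outside it. Of all the probe sets of the 10 genes that passed, the one nearest to the threshold was 1416576_at of *Socs3* at 2.27-fold. Of the 9360 genes measured on both arrays, 1243 had at least the fold of *Cebpd*.

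*Socs3* encodes the inhibitor that STAT3 induces and that shuts off the interleukin 6 receptor. Probe set 1416576_at gave 15.7 against 35.7, and was 2.27-fold higher in the latter. Probe set 1456212_x_at gave 27.9 against 47.2, a 1.69-fold difference. The brightest, 1455899_x_at, gave 41.9 against 62.2, a 1.49-fold difference. The medians of their neighbors were 1.77-fold, 1.63-fold and 1.47-fold in the same order. The brighter the probe set the smaller was the fold, in the probe sets of *Socs3* and in their neighbors alike. Because the brightest represents the gene, *Socs3* was not called, although 1416576_at, the only one with a name that marks it as unique to its gene, passed 2-fold. The suffix _x_at marks probe sets that may cross-hybridize.

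Uridine phosphorylase 1, *Upp1*, which splits uridine for salvage and is induced by inflammatory cytokines, was under the floor on both arrays. It gave 0.532 in the Prom1- array against 1.46 in the Prom1+ array with probe set 1448562_at. Both lay above the *Bacillus* controls, and the latter lay just under the floor. With the floor lowered to 50 on the scale of the target of 500, the difference was at least 1.74-fold. Its liver counterpart *Upp2* was under the floor. Of the 13 genes of pyrimidine salvage and breakdown on the array 6 were measured, and 4 were higher, 0 lower and 2 within 2-fold. Their median log2 ratio was 1.46, and over all genes measured 28.2% were higher with a median of 0.66. With the trimmed mean 3 of the 6 were higher at a median of 1.07, beside 7.99% of all genes measured. With quantile normalization 2 were higher at a median of 0.97, beside 6.23%, and with loess 3 at 0.99, beside 5.47%. The uridine kinases led this list. *Uck1* gave 2.85 against 11.4 and was 3.99-fold higher, and *Uckl1* gave 9.29 against 30.6 and was 3.29-fold higher. The brightest probe set of *Uck2* gave 1.68, hardly above the floor of 1.67, against 8.16 and was 4.85-fold higher. Its 2 other measured probe sets were 1.75-fold and 1.62-fold higher. The mitochondrial thymidine kinase *Tk2* was at least 2.31-fold higher.

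*Tmsb10*, thymosin beta 10, binds actin monomers and is known to be high in activated venous endothelium. It was among the brightest transcripts of both arrays and was somewhat lower in the Prom1+ array. Probe set 1437185_s_at gave 357 against 231, a log2 ratio of -0.63. Probe set 1436902_x_at gave 260.0 against 184, a log2 ratio of -0.50, and 1417219_s_at gave 184 against 167, a log2 ratio of -0.14. Their neighbors in signal had medians of -0.48, -0.43 and -0.25, so these ratios were those of very bright transcripts on these arrays. In the Prom1- array 1437185_s_at was brighter than 99.9% of all probe sets, and in the Prom1+ array too. The remaining probe sets, 1436682_at with 0.404 against 0.0146 and 1455946_x_at with 0.534 against 0.782, were under the floor, so the probe sets of this gene disagree on whether it is measured at all. The 3 bright ones bear suffixes of sequence shared between transcripts. The related peptide *Tmsb4x* gave 425 against 277, a log2 ratio of -0.62 beside a neighbors' median of -0.49. Among the 3 thymosin and prothymosin genes measured all were within 2-fold, with a median log2 ratio of -0.62.

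Whether *Cebpd*, *Socs3* and *Tmsb10* were called turned on the scaling of the arrays. The 6 scalings were the deposited one, a 2% trimmed mean of 500, the pan-endothelial genes set equal, the hybridization controls set equal, quantile normalization and loess of the ratio on signal. They put the median log2 ratio of all genes measured at 0.66, 0.12, 0.63, 1.67, 0.09 and 0.04. The log2 ratio of *Ch25h* lay between 2.02 and 3.78, the bound of *Lcn2* between 1.96 and 2.82 and that of *Lrg1* between 1.61 and 2.45, so all 3 were 2-fold higher under each scaling. With the floor raised to 200 on the scale of the target, however, the bound of *Lrg1* was a log2 ratio of 0.93, under 2-fold. *Cebpd* ranged from 0.45 to 2.38 and was called under 3 of the 6. *Socs3* ranged from 0.01 to 1.63 and was called with the hybridization controls set equal alone. *Tmsb10* ranged from -1.17 to 0.43, and its direction turned with the hybridization controls set equal. The share of genes called 2-fold higher was 7.99% with the trimmed mean, with 868 higher and 873 lower, and 5.47% with loess, with 590 higher and 854 lower, beside 3045 higher and 515 lower as deposited. With the hybridization controls it was 80.4%.

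**Figure D3:**
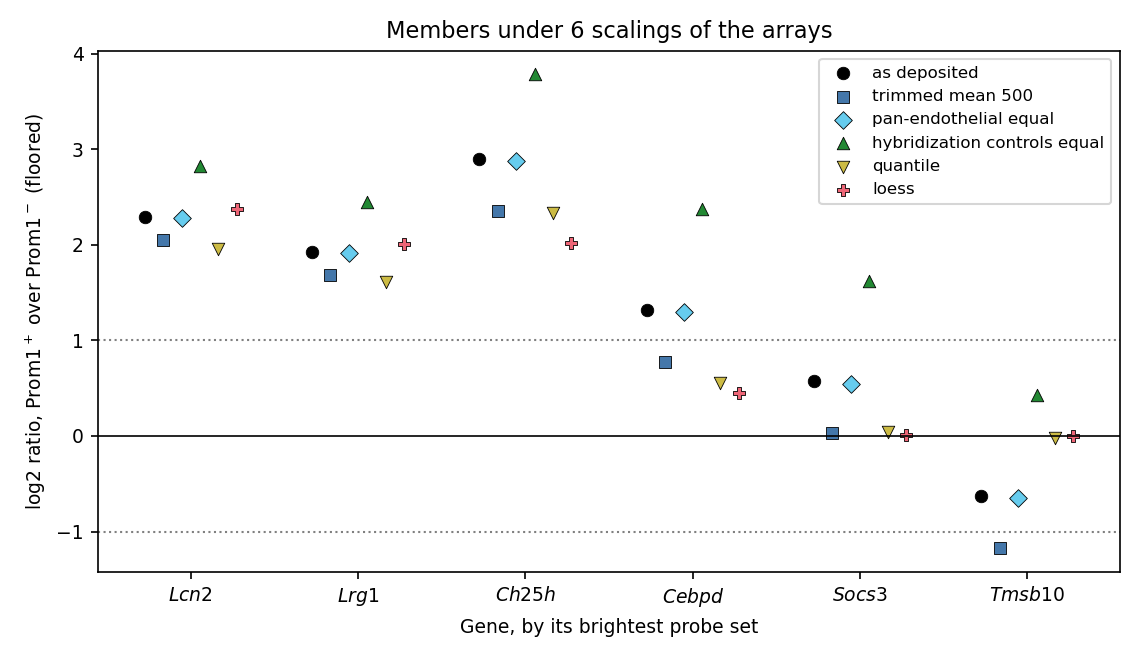
Log2 ratio of the Prom1+ over the Prom1- array for each of the 6 measured genes under 6 scalings, with 1 symbol per scaling and dotted lines at 2-fold. *Ch25h*, *Lcn2* and *Lrg1* stay above a log2 ratio of 1 throughout, where those of *Lcn2* and *Lrg1* are bounds, and *Tmsb10* crosses 0 with the hybridization controls set equal.

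Around these genes, the acute phase proteins as a group were mostly not measured. Of 31 genes listed 28 are on the array and 10 reached the floor. Of these 10, 4 were higher, 2 lower and 4 within 2-fold, with a median log2 ratio of 0.39. Over all genes measured 28.2% were higher, 4.77% were lower and the median was 0.66. Leaving out *Lcn2* and *Lrg1*, 2 of 8 were higher. These were the lipopolysaccharide-binding protein *Lbp*, with 1.16 against 4.22 and at least 2.52-fold higher, and its partner *Cd14*, with 2.90 against 7.86 and 2.71-fold higher. With the trimmed mean, quantile normalization and loess *Lbp* was still higher and *Cd14* was not called. The serum amyloids *Saa1* and *Saa2* went the other way. *Saa1* gave 5.45 against 1.46 and was at least 3.26-fold lower, and *Saa2* gave 4.95 against 1.10, at least 2.96-fold lower. These genes are nearly identical and their probe sets bear the suffixes _s_at and _x_at, so that both values may come from the same transcripts. With the hybridization controls set equal *Saa1* was no longer 2-fold lower. The brightest of the list, the metallothioneins *Mt1* and *Mt2* and ceruloplasmin, *Cp*, were within 2-fold with their brightest probe sets, that of *Cp* giving 57.9 against 85.0. A dimmer probe set of *Mt1* was 2.95-fold higher, and 2 of *Cp* were 2.07-fold and 2.03-fold higher. Fibrinogen, C-reactive protein, *Hpx*, *Orm2* and *Serpina3n* were under the floor.

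Of the signaling route to these genes the receptors were measured and the ligands of the interleukin 6 family mostly not. *Il6*, *Lif* and *Osm* were under the floor on both arrays. The study lists *Il6* as lower in Prom1+ endothelium, from the same probe set, which gave 0.530 against 0.195. No direction was read for it here. The receptor chain *Il6ra* gave 16.8 against 22.1 and the shared chain *Il6st* gave 74.5 against 107, although other probe sets of *Il6st* differed, 2 being 3.54-fold and 2.76-fold higher and 1 being 1.42-fold lower. *Stat3* gave 23.1 against 34.0, a 1.47-fold difference. Of 22 genes of interleukin 6 and STAT3 signaling measured, 6 were higher, 1 lower and 15 within 2-fold, with a median log2 ratio of 0.56. This share was near the 28.2% of all genes measured, and the median was under their 0.66, so the count is no result about the list. Those higher were *Cebpd* and 5 others. The inhibitor *Cish* was at 4.47-fold, the NF-kB partner *Bcl3* at 3.70-fold and the kinase *Tyk2* at 3.10-fold. The AP-1 factor *Junb* was at 2.43-fold and the STAT inhibitor *Pias3* at 2.22-fold. *Cish*, *Bcl3* and *Tyk2* were still higher with the trimmed mean, and *Cish* and *Bcl3* alone with quantile normalization and loess. *Cebpb* and *Myc* were lower under each of these scalings.

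The 1 gene lower in that list as deposited was *Cebpb*, the C/EBP factor through which interleukin 6 acts early in the acute phase. It gave 14.3 in the Prom1- array against 1.94 in the Prom1+ array and was 7.40-fold lower, with its second probe set under the floor. *Cebpd* and *Cebpb*, which take part in the same response, thus had opposite directions on these arrays. The ratio of *Cebpd* was, however, near that of its neighbors in signal, as given above. *Cebpb* had a log2 ratio of -2.89 beside a neighbors' median of 0.85. Of the other C/EBP genes, *Cebpg* was 2.08-fold higher with its brightest probe set and *Cebpa* and *Ddit3* were within 2-fold. *Cebpg* was not called with the trimmed mean, quantile normalization or loess, and *Cebpa* was then lower. *Cebpb* and the serum amyloids moved with the markers of mural cells, fibroblasts and macrophages given above, which were lower in the Prom1+ array. Their part in the result was not tested.

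Of 8 SOCS genes 7 were measured. *Socs3* was not called, 3 others were higher and 0 lower, with a median log2 ratio of 0.88 beside 28.2% and 0.66 over all genes measured. Those higher were *Cish*, *Socs4* at 2.85-fold, of which another probe set was at least 2.77-fold lower, and *Socs6* at 2.13-fold. *Cish* alone was higher with the trimmed mean, quantile normalization and loess, where the medians were 0.33, 0.39 and 0.22. *Socs1*, which like *Socs3* is induced by cytokines, was under the floor. Of 17 measured genes of the interleukin 1, TNF and lipopolysaccharide inputs, 4 were higher, 1 lower and 12 within 2-fold, with a median log2 ratio of 0.61. These were near the 28.2% and 0.66 over all genes measured, so the count is no result about the list. With the trimmed mean, quantile normalization and loess 0 were higher and *Tlr4* was lower. As deposited, the interleukin 1 receptor *Il1r1* gave 21.2 against 47.8 and was 2.26-fold higher, *Relb* was 2.75-fold higher and *Tlr4* was 2.35-fold lower. The cytokines *Il1a*, *Il1b* and *Tnf* were under the floor on both arrays.

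Partners of *Lcn2* and *Lrg1* were measured in part. *Slc22a17*, a receptor for lipocalin 2, gave 3.89 against 6.89, a 1.77-fold difference, and *Mmp9*, which lipocalin 2 binds, was under the floor. Of 13 lipocalins and partners 4 were measured, and prostaglandin D synthase, *Ptgds*, a lipocalin of the meninges, was 7.57-fold lower at 305 against 40.3. Of 14 genes of the TGF-beta receptor complex list, 4 were higher, *Lrg1*, *Tgfb1*, *Smad2* and *Smad3*, and 0 lower, with a median log2 ratio of 0.57. This share was near the 28.2% of all genes measured and the median was under their 0.66, so the count is no result about the list. With the trimmed mean, quantile normalization and loess *Lrg1* alone was higher. The receptors that *Lrg1* is known to act on were bright and within 2-fold with their brightest probe sets. *Eng* gave 140 against 119, *Acvrl1* gave 67.2 against 112, and *Tgfbr2* gave 96.8 against 114. A second probe set of *Acvrl1* was 2.05-fold higher. Among 9 measured genes of heme handling, which *Hp* serves, 3 were higher, beside 28.2% of all genes measured, so the count is no result. Heme oxygenase *Hmox1* was 2.47-fold and the exporter *Flvcr1* 3.46-fold higher, and the receptor *Lrp1* was 3.69-fold lower. With the trimmed mean and quantile normalization *Flvcr1* alone was higher, and with loess 0 were.

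*Lcn2*, *Lrg1* and *Tmsb10* are also known as genes of brain venules, and the venous list was chosen, like the others, with earlier results known. Of 17 genes listed 14 were measured, of which 8 were higher, 0 lower and 6 within 2-fold, with a median log2 ratio of 1.13. Without *Lcn2*, *Lrg1* and *Tmsb10*, 6 of 11 were higher with a median of 1.09, beside 28.2% and 0.66 over all genes measured. This count turned on the scaling. With the trimmed mean 1 of these 11, *Ackr1*, was higher and 1, *Nr2f2*, lower, with a median of 0.55, and with loess 2, *Slc38a5* and *Ackr1*, were higher and 1, *Nr2f2*, lower, with a median of 0.44. *Slc38a5*, an amino acid carrier of brain veins, gave 44.1 against 118 and was 2.66-fold higher, where its neighbors in signal had a median log2 ratio of 0.41 and it had 1.41. *Ackr1*, the atypical chemokine receptor of venules, gave 0.252, under the floor, against 5.36 and was at least 3.20-fold higher. Like *Lrg1*, it was measured in the Prom1+ array alone. The leukocyte adhesion molecules *Vcam1*, at 25.9 against 63.3, and *Icam1*, at 31.0 against 71.6, were 2.45-fold and 2.31-fold higher, and *Nrp2* was 2.13-fold higher. *Vcam1*, *Icam1* and *Nrp2* had log2 ratios of 1.29, 1.21 and 1.09 beside neighbors' medians of 0.62, 0.62 and 0.66.

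Not every venous gene was called. The venous transcription factor *Nr2f2* gave 77.5 against 42.1 with its brightest probe set, 1.84-fold lower in the Prom1+ array, and its other probe sets went both ways within 2-fold. *Vwf* gave 126 against 159, a 1.27-fold difference. *Tmem252*, *Ephb4* and *Ctsc* were 1.75-fold, 1.54-fold and 1.04-fold higher with their brightest probe sets, which is within 2-fold. The log2 ratios of *Vwf* and *Tmem252*, 0.34 and 0.81, lay above their neighbors' medians of -0.09 and 0.44. Those of *Nr2f2*, *Ephb4* and *Ctsc*, -0.88, 0.62 and 0.05, lay below theirs of 0.55, 0.79 and 0.54. Other probe sets of *Ctsc* were 2.59-fold and 3.12-fold higher. The selectins *Selp* and *Sele*, stored or induced for leukocyte rolling, were under the floor on both arrays, so no direction was read for them. The study lists both as higher in Prom1+ endothelium, from probe sets that were under the floor here. *Sele* gave 0.0215 against 0.465. The probe set that represents *Selp* gave 1.01 against 0.634, and its others gave 0.0308 against 1.26 and 0.0705 against 0.513.

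**Figure D4:**
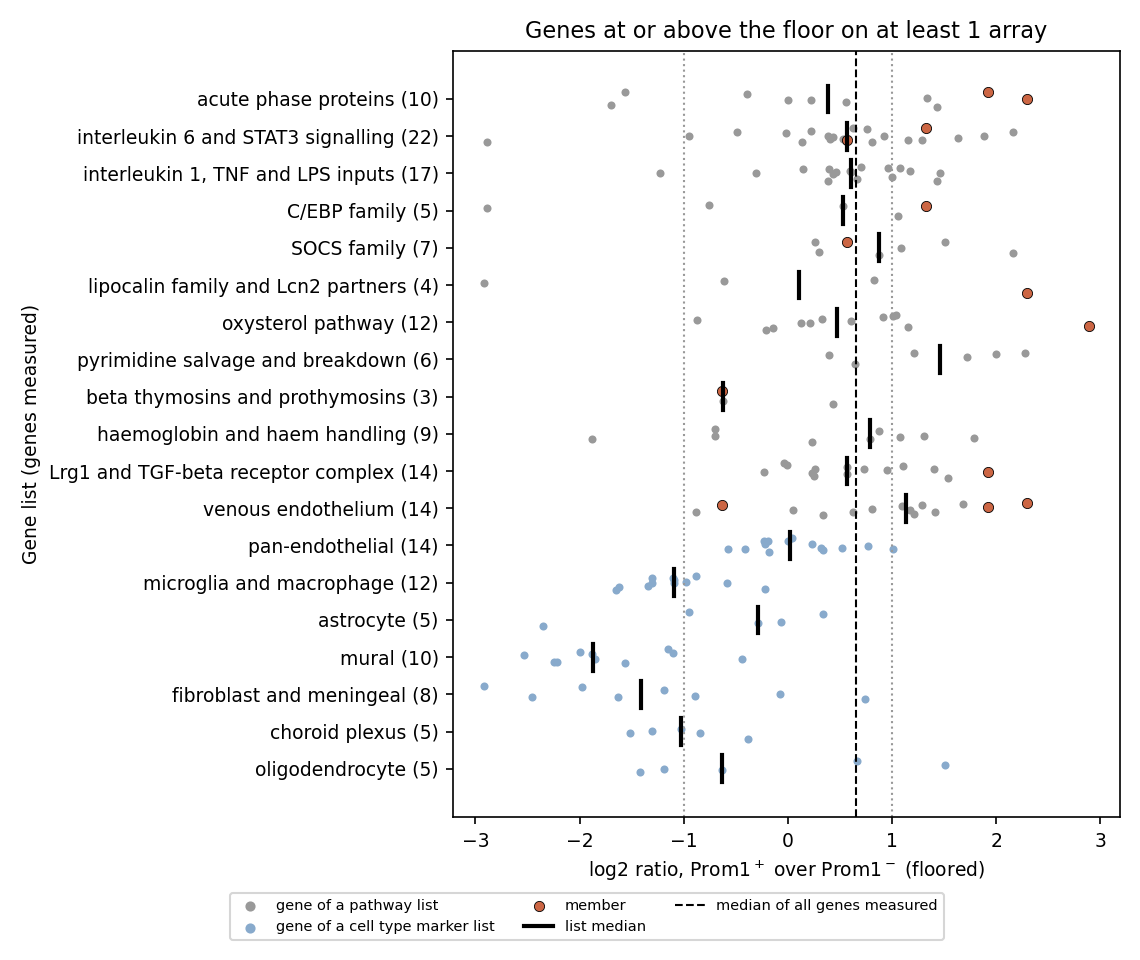
Log2 ratio of the Prom1+ over the Prom1- array for the genes of each list that either array measured, with the number measured in parentheses. Signals under the floor were set to it, points are genes, black bars are list medians and the dashed line is the median of all genes measured. The venous list has a median of 1.13 and the lists of mural cells, fibroblasts and macrophages have medians of -1.87, -1.41 and -1.10.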

How the data were processed

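Transcripts of CD31+ cells with and without Prom1, sorted from mouse brain vasculature, were measured on 2 Affymetrix mouse arrays, 1 per population, and this number limits the precision. The authors isolated RNA with the RNeasy kit, amplified and labeled it with the Ovation system, brought the signals to a target of 500 and used GeneSpring for normalization. MAS5 is named in the submitters' processing notes. On the log2 scale the deposited values are relative to the median signal of their array, with a median of 0 on both and a lowest value of -6.64. Amplification and scaling of this kind set all values relative to the other transcripts of an array, so that a change in all of them would not be seen.

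The log2 values were turned into multiples of the median. The floor of 100 was translated to 1.67 by averaging the 2% trimmed means of the arrays, 6.81 and 9.94 times the median. The platform annotation lists 35890 of the 45101 probe sets. Of these 34958 have 1 gene symbol, 932 have several and were left out of genes, and 9211 have no entry. The gene identifiers of 34754 of the 34958 were found among GRCm38.p6 genes. A gene was represented by its brightest probe set. The neighbors of a probe set were the 200 nearest in mean log2 signal among those above the floor on both arrays, a number chosen after seeing the data. The rules were tested on simulated data.

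The genes and lists were chosen with earlier results of these data known. The text names every probe set of the 10 genes and their known partners. From each list, the rule was at most 4 genes for brightness and the 2 with the largest ratio each way. Further genes of the lists were named after their values were seen, mostly because they were called. Among these are *Tyk2*, *Junb*, *Pias3*, *Vcam1*, *Icam1* and *Nrp2*. Alternatives were other floors, folds, scalings, the mean over probe sets, and the genes without their _x_at or _s_at probe sets. The tools were matplotlib 3.10.9, statsmodels 0.14.6, scipy 1.17.1, pandas 2.3.3, numpy 2.4.6 and Python 3.11.15.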

Additional observations from a re-analysis of the deposited data

How the results depend on the processing

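No paired analysis was possible because each population has 1 array. Under the alternatives 154 values moved by less than 0.54, the SD of log2 ratios within a gene, or as counts stayed within 1.5 times. The other 71 moved by more. Among values of at least 2-fold as deposited 0 changed sign, but the bounds of *Lcn2* and *Lrg1* could not. Smaller values did, among them *Tmsb10* and the median of the oxysterol pathway. Settings are given in the order of the alternatives, and all values are log2 ratios unless they are counts. With a floor of 50, *Lcn2* was at least 3.29 and *Lrg1* at least 2.93. With a floor of 200 they were at least 1.29 and 0.93 and *Ch25h* was at least 2.26, so that *Lrg1* was no longer 2-fold higher. With no floor *Lcn2* was at 9.44, *Lrg1* at 3.88 and the median of the acute phase proteins at 1.00. With a 2% trimmed mean of 500, 3 probe sets of the 10 genes were higher and 2 lower, and 1 gene, *Tmsb10*, was lower. *Ch25h* was then at 2.35, *Socs3* at 0.027, *Cebpd* at 0.78 and *Tmsb10* at -1.17. The list medians there were 0.020 for interleukin 6 and STAT3 signaling, 0.060 for interleukin 1, TNF and lipopolysaccharide inputs, -0.015 for the C/EBP family, 0.33 for the SOCS family, -0.44 for lipocalins, -0.073 for the oxysterol pathway, -1.16 for thymosins, 0.24 for heme handling, 0.024 for the TGF-beta receptor complex and 0.59 for venous endothelium. With the hybridization controls set equal 8 probe sets were higher, with *Ch25h* at 3.78, *Socs3* at 1.63, *Cebpd* at 2.38 and *Tmsb10* at 0.43. The list medians there were 1.28 for acute phase proteins, 1.63 for interleukin 6 and STAT3 signaling, 1.66 for interleukin 1, TNF and lipopolysaccharide inputs, 1.58 for the C/EBP family, 1.93 for the SOCS family, 1.16 for lipocalins, 1.39 for the oxysterol pathway, 0.44 for thymosins, 1.56 for heme handling, 1.62 for the TGF-beta receptor complex and 2.15 for venous endothelium. With quantile normalization 3 probe sets were higher, with *Ch25h* at 2.34, *Cebpd* at 0.56 and *Tmsb10* at -0.022. The list medians there were -0.062 for interleukin 1, TNF and lipopolysaccharide inputs, -0.21 for the C/EBP family, -0.10 for the oxysterol pathway, -0.022 for thymosins, 0.11 for heme handling and 0.51 for venous endothelium. With loess 3 probe sets were higher, with *Ch25h* at 2.02, *Socs3* at 0.0099, *Cebpd* at 0.45 and *Tmsb10* at -0.0034. The list medians there were -0.16 for interleukin 1, TNF and lipopolysaccharide inputs, -0.28 for the C/EBP family, 0.22 for the SOCS family, -0.45 for lipocalins, -0.11 for the oxysterol pathway, -0.0034 for thymosins, 0.034 for heme handling and 0.45 for venous endothelium. At a threshold of 1.5-fold 1 probe set and 1 gene, *Tmsb10*, were lower, and at 3-fold 3 probe sets were higher. With the mean over probe sets 1 gene, *Tmsb10*, was lower, because its probe sets under the floor enter the mean, and the median of lipocalins was 0.82. Without probe sets named _x_at or _s_at, *Socs3* was at 1.18 and higher, the median of acute phase proteins was 1.38, and *Tmsb10* had no value, since the probe set left is under the floor. Signal over background limits what can be said of *Upp1*, *Hp*, *Saa3* and *Orm1*, which were under the floor on both arrays, and of the size of the *Lcn2* and *Lrg1* differences, which are bounds.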
